A study of Sus scrofa with 12 samples.

Results

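The levels of known microRNAs were followed over the first week after weaning in the small intestine of piglets. The 9 libraries of weaned piglets, of 12 libraries in the series, were chosen by their group label: 3 libraries each from piglets weaned for 1, 3 or 7 days. All 4 groups of the series are of the Big white (Large White) breed, and weaning began after 21 days of age. Age therefore runs along with days of weaning and cannot be told apart from it. The 3 remaining libraries come from piglets of more than 21 days that were still suckling (feeding); they enter no test here and are given as a baseline. The labels name the sample as intestine cells of the small intestine and do not say which segment was taken, or whether each library is a separate animal. The p-values therefore measure the spread between these libraries, which may be technical. Known microRNAs are the identifiers that carry a pig microRNA name. Of 337 in the series, 336 were listed in at least 1 of the 9 libraries, and 292 had enough counts to be tested.

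A microRNA is a short RNA that pairs with messenger RNAs and lowers their translation or stability. Many microRNAs are cut from 1 longer transcript together with their genomic neighbours, so neighbours often share a level, and many are typical of 1 cell type, so that a level in whole tissue also reflects which cells are present. In the gut, miR-192, miR-194 and miR-215 are typical of the absorptive epithelium, miR-143 and miR-145 of smooth muscle, and miR-142, miR-150 and miR-155 of leukocytes. Weaning replaces milk by solid feed, and is known for a passing shortening of the villi and inflammation of the mucosa. In bulk tissue, fewer cells of a type and less RNA per cell cannot be told apart.

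Total counts per library ran from 24670093 to 27784417, and counts of known microRNAs from 6987325 to 18331061. Levels are given in normalised CPM, the count as a share of the library's counts on the named small RNAs tested, scaled between libraries over those RNAs. miR-192 and miR-194b-5p were the most abundant known microRNAs over the 9 libraries, with mean levels of 84120 and 76670 normalised CPM. Both are typical of gut epithelium, as the label of small intestine has it. Replicate 1 at 7 days stood apart. It had the lowest level of the 9 libraries in 136 of the 292 microRNAs, and lay more than 4-fold below all 8 others in 35, against at most 1 for any other library. These counts depend on the scaling over all named small RNAs. Scaled among known microRNAs alone, this library was the highest of the 9 for some, such as let-7a at 54650 and miR-191 at 126000 CPM. For others, such as miR-215 at 12.35 CPM, it was still the lowest. Results are therefore given with and without it. Within a group, no library was a repeat of another: the counts of the closest pair differed with a chi-square of 307 per degree of freedom.

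The share of known microRNAs was lowest at 7 days and most variable there. It was 66.43, 60.19 and 65.25% of all counts at 1 day, 46.42, 63.96 and 66.53% at 3 days, and 25.29, 48.29 and 53.57% at 7 days. The slope was -7.46 percentage points per doubling of days weaned (exact permutation test over 1680 relabelings, two-sided, p = 0.0446, adjusted p = 0.1 over 5 classes of reads), and -4.43 points without replicate 1 at 7 days (exact permutation p = 0.0946, adjusted p = 0.237). Counts in exons, introns and intergenic sequence, which carry no small RNA name, made up 23.92, 27.16 and 21.55% at 1 day, 43.18, 22.24 and 20.97% at 3 days, and 62.17, 39.38 and 32.17% at 7 days. Their slope was 7.04 points per doubling (exact permutation adjusted p = 0.1), and 3.95 points without replicate 1 at 7 days (exact permutation adjusted p = 0.274). Predicted piRNAs, named by the authors for a class of RNA best known from the germ line, took 0.52, 0.5 and 0.45% at 1 day, 0.98, 0.58 and 0.57% at 3 days, and 1.19, 1.13 and 0.91% at 7 days. Their share rose by 0.207 points per doubling, the single class of the 5 that passed (exact permutation p = 0.00655, adjusted p = 0.0327). This call was lost when any single library other than replicate 1 at 1 day was left out, with exact permutation adjusted p of 0.0536 to 0.107 over 560 relabelings; over all 9 such tests the slope was 0.183 to 0.226 points. Predicted microRNAs (slope 0.29 points, exact permutation adjusted p = 0.567) and Rfam families (slope -0.0747 points, exact permutation adjusted p = 0.881) did not pass.

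**Figure D1:**
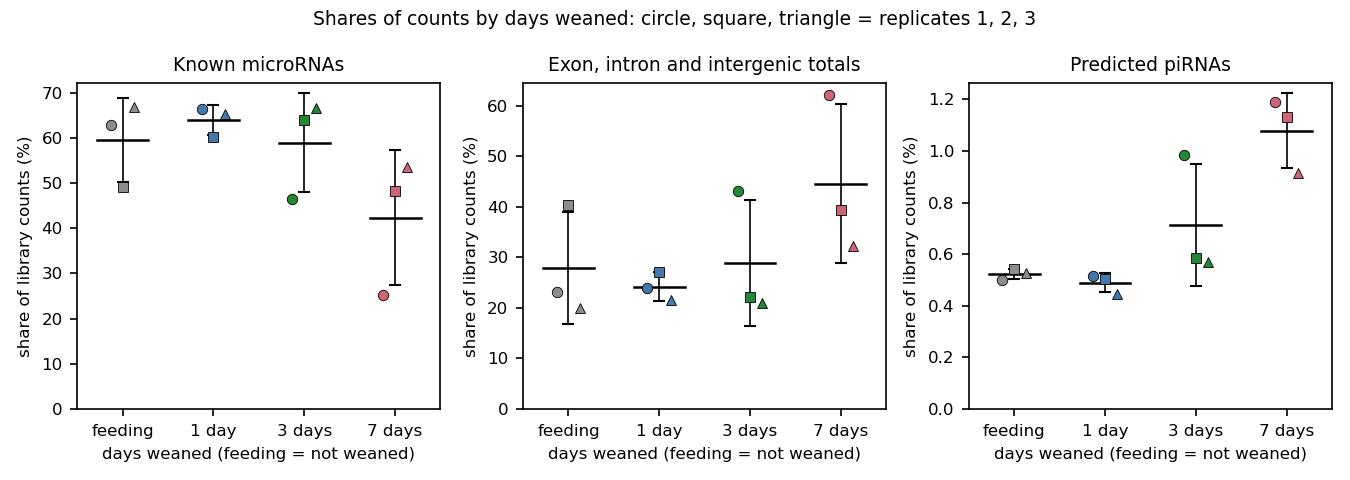
Share of each library's counts, in percent, on known microRNAs (left), on exon, intron and intergenic totals (middle) and on predicted piRNAs (right), by days weaned, with feeding libraries at the left of each panel. Points are libraries, lines are means and bars are SD over 3 libraries; replicate 1 at 7 days has the lowest known microRNA share, 25.29%, and the highest share without a small RNA name, 62.17%.

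How a typical known microRNA appears depended on the scaling, and the part of the lower share at 7 days in this was not tested. With libraries scaled over all named small RNAs, the median slope of the 292 known microRNAs was -0.20 on the log2 scale per doubling of days weaned, against 0.15 for the other small RNAs, and 240 of 292 had a negative slope. Scaled among known microRNAs alone, the median slope was 0.01 and the signs were even, with 156 positive and 136 negative. Each slope is given below in both ways: first from the fit of all 2235 named small RNAs that were tested, then from the fit of known microRNAs alone. A slope of -0.20 in the first is the level of the class, not of the single microRNA.

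No known microRNA passed the trend test in either of these fits, so what follows describes levels and slopes that did not pass unless a passing fit is named. In the fit of all named small RNAs, edgeR called 0 of 2235 at an adjusted p under 0.05 (0% called), and limma called 0 (0%). At an unadjusted p under 0.05 it held 216 small RNAs (9.66%), of which 28 were known microRNAs. Of these, 26 had a negative slope, against 3.45% of all tested in that direction, and 2 a positive slope, against 6.22%. Among known microRNAs alone, edgeR again called 0 (0%), as did limma (0%), while 33 of 292 (11.3%) had an unadjusted p under 0.05. Here the direction was the other way, with 27 positive (9.25%) and 6 negative (2.05%). The direction of a count of microRNAs thus turned with the scaling.

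Leaving out replicate 1 at 7 days, the fit of known microRNAs alone called 3 of 294 (1.02%; 11.2% at an unadjusted p under 0.05). They were miR-204, which rose with days, and miR-676-3p and miR-10b, which fell. The fit of all named small RNAs still called 0 of 2632 without that library (0%; 5.93% at an unadjusted p under 0.05). DESeq2, on all 9 libraries, called 49 small RNAs (2.19%), among them miR-676-3p, miR-10b, miR-129a-5p and miR-196b-5p, all lower with days. Among known microRNAs alone DESeq2 called 7 (2.4%), which added miR-204, miR-4332 and miR-218b, all higher with days.

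**Figure D2:**
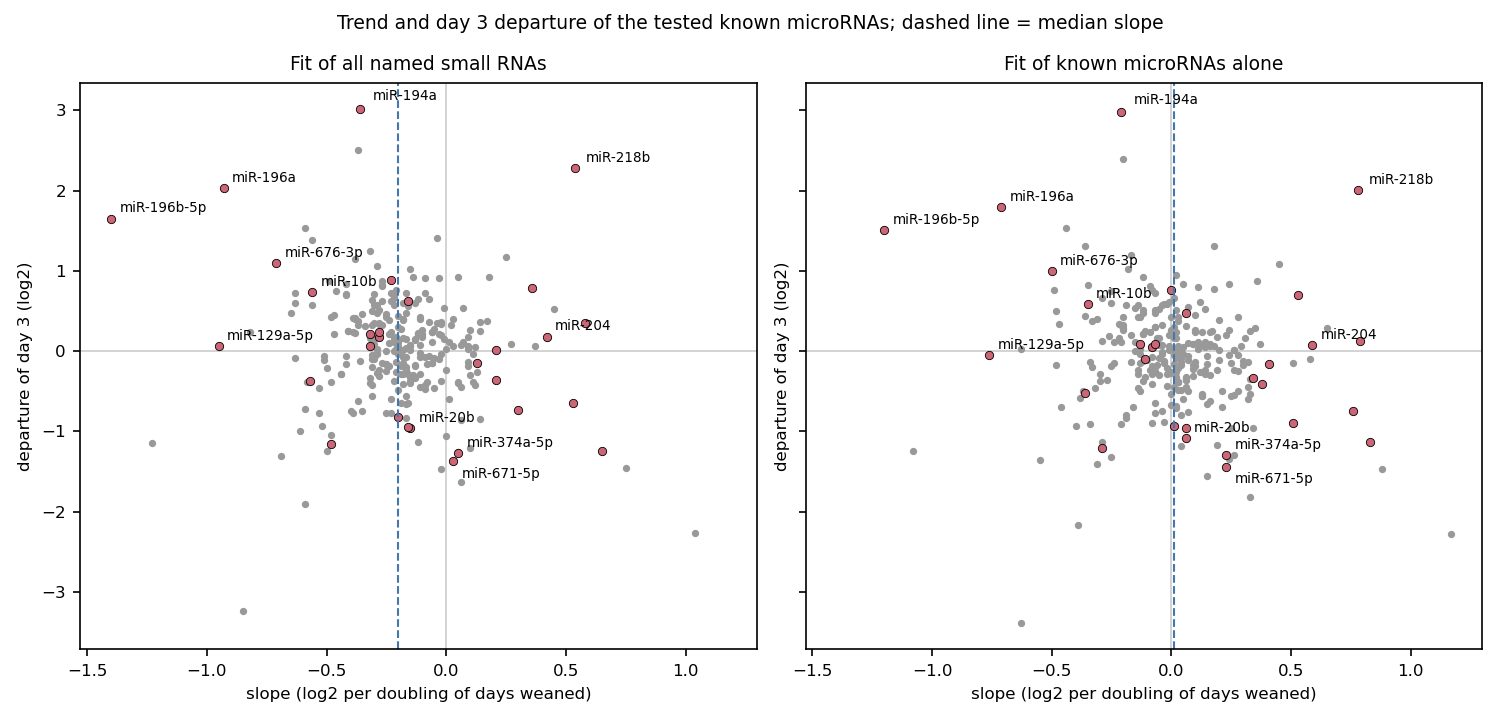
Slope on log2 days (horizontal axis) against the departure of day 3 from a straight line between 1 and 7 days (vertical axis), both in log2 units, for the 292 tested known microRNAs in the fit of all named small RNAs (left) and of known microRNAs alone (right). Red points are the 29 microRNAs named for the trend or the departure, and all others, also those described in the text, are grey. The dashed line is the median slope, -0.20 on the left and 0.01 on the right, and miR-194a has the highest departure in both panels.

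Among microRNAs with lower levels at 7 days, miR-676-3p had the smallest p. Its level was 1262, 1073 and 1275 normalised CPM at 1 day, 1091, 1180 and 1175 at 3 days, and 250.4, 216.9 and 390.0 at 7 days. The libraries at 1 and 3 days overlapped, and all 3 at 7 days were lower than any of them, so that the difference lay between 3 and 7 days. The slope was -0.71 ± 0.12 (SE) with an adjusted p of 0.286 from edgeR. It was -0.50 ± 0.09 in the fit of known microRNAs alone, with an edgeR adjusted p of 0.0729. Without replicate 1 at 7 days miR-676-3p fell by 0.56 ± 0.10 per doubling in that fit (edgeR adjusted p = 0.0328). Feeding libraries held 3416, 1881 and 2257 normalised CPM, above all 9 weaned libraries. The microRNA lies on chromosome X (chrX:56083372-56083451, Sscrofa11.1, from the RefSeq annotation), within the span of EDA, the gene of the ectodysplasin ligand. Its other arm, miR-676-5p, was scarce, at 0.6138 to 2.67 normalised CPM over the 9 libraries.

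The microRNAs of the HOX gene clusters are transcribed among the genes that set position along the body axis. All 6 tested members had negative slopes, with a median of -0.48, and -0.28 among known microRNAs alone. In the first of these fits, 240 of all 292 known microRNAs had a negative slope. miR-10b (chr15:81951644-81951723) held 6880, 8875 and 9361 normalised CPM at 1 day, 5600, 8191 and 8301 at 3 days, and 2742, 2710 and 2592 at 7 days. All libraries at 7 days were lower than the other 6, which overlapped each other, and the 3 at 7 days were close together. Its slope was -0.56 ± 0.10 (edgeR adjusted p = 0.286) and -0.35 ± 0.09 (adjusted p = 0.266), and without replicate 1 at 7 days it fell by 0.44 among known microRNAs alone (adjusted p = 0.0328). Feeding libraries had 3809, 4255 and 6106 normalised CPM, above the libraries at 7 days and below those at 1 day.

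miR-196b-5p varied far more within a group. It held 1410, 797.1 and 5215 normalised CPM at 1 day, 624.3, 2448 and 1694 at 3 days, and 31.52, 390.7 and 22.81 at 7 days. The slope was -1.40 ± 0.44 (edgeR adjusted p = 0.478) and -1.20 ± 0.39 (adjusted p = 0.266), and it ran from -2.26 to -0.97 when 1 library was left out. miR-196a, whose sequence is near-identical so that reads may be split between the names, had 994.4, 1693 and 2598 at 1 day, 646.8, 4675 and 1940 at 3 days, and 196.9, 490.1 and 81.01 normalised CPM at 7 days. The libraries at 7 days were below all others for both, as for miR-10b. Feeding replicate 1 was low in both too, with 216.2 normalised CPM of miR-196b-5p and 227.1 of miR-196a, against 1215 or more in the other feeding libraries. miR-10a-5p, the most abundant member, averaged 7955 ± 2490, 9976 ± 2420 and 4887 ± 1030 normalised CPM at 1, 3 and 7 days (SD, n = 3 each), with a slope of -0.23 and of -0.02 among known microRNAs alone.

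miR-129a-5p, of a family studied mostly in neurons, differed from these in that its level was already lower at 3 days. It held 235.6, 123.1 and 135.6 normalised CPM at 1 day, 50.08, 98.51 and 33.65 at 3 days, and 14.05, 33.76 and 30.35 at 7 days. The libraries at 1 day were above all others, and those at 3 and 7 days overlapped by 1 library each. The slope was -0.95 ± 0.21 (edgeR adjusted p = 0.478) and -0.76 ± 0.16 (adjusted p = 0.0738), and the mean at 3 days lay 0.06 ± 0.48 above a straight line between 1 and 7 days. Feeding libraries, at 65.32, 10.4 and 40.01 normalised CPM, were below all libraries at 1 day. The other arm, miR-129a-3p, had a slope of -0.51 ± 0.26.

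The remaining microRNAs named for a negative slope were let-7g, of the let-7 family that accompanies differentiation, miR-100, miR-146a-5p, which dampens NF-kB signalling in human and mouse cells, and miR-34a, a target of p53 in the same species. Their slopes of -0.28 to -0.32 lay near that of the class and became -0.07 to -0.13 among known microRNAs alone. let-7g, as an example, held 12890, 13860 and 15240 normalised CPM at 1 day, 9663, 13780 and 11060 at 3 days, and 6941, 8635 and 8303 at 7 days. The libraries at 7 days were below the rest, yet scaled among known microRNAs the groups overlapped. miR-143-3p owed its slope to 1 library: it held 208400 normalised CPM in replicate 1 at 1 day, against 30150 to 49180 in the other 8 libraries. The slope of -0.57 ± 0.22 became -0.11 without that library, and among known microRNAs alone -0.36 became 0.12.

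Of the microRNAs with higher levels at later days, miR-204 was the clearest. The gene lies in TRPM3, a cation channel gene (chr1:224065494-224065602). miR-204 held 309.4, 271.1 and 218.6 normalised CPM at 1 day, 382.1, 513.8 and 525.1 at 3 days, and 288.5, 846.5 and 638.1 at 7 days. The libraries at 3 days were above all at 1 day, and those at 7 days were too except replicate 1. Scaled among known microRNAs alone, all 6 libraries at 3 and 7 days, with 539.4 to 1226 CPM, were above the 3 at 1 day, with 211.5 to 325.0. The slope was 0.42 ± 0.16 (edgeR adjusted p = 0.478) and 0.59 ± 0.12 (adjusted p = 0.0729), and miR-204 rose by 0.65 ± 0.09 per doubling among known microRNAs alone without replicate 1 at 7 days (adjusted p = 0.0234). The slope of 0.42 became 0.28 without replicate 2 at 7 days. Feeding libraries held 295.4, 364.1 and 226.1 normalised CPM, of which the second was above all at 1 day.

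miR-132, which CREB induces together with its neighbour miR-212 in rodent neurons, was low at 1 day. It held 7.999, 11.88 and 7.195 normalised CPM at 1 day, 17.88, 17.37 and 32.1 at 3 days, and 7.392, 25.28 and 18.93 at 7 days. Of the libraries at 3 and 7 days, only replicate 1 at 7 days lay within the range of 1 day, and scaled among known microRNAs no library at 3 or 7 days did. The slopes were 0.36 ± 0.21 and 0.53 ± 0.16 (edgeR adjusted p = 0.532 and 0.266), and the first became 0.21 without replicate 2 at 7 days. miR-212, from the same stretch (chr12:48162625-48163135), had slopes of 0.45 ± 0.34 and 0.65 ± 0.29 at levels of 0.7651 to 8.789 normalised CPM.

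The days overlapped for the further microRNAs named for a positive slope, in the scaling over all named small RNAs. miR-4332 held 5.972, 8.431 and 5.082 normalised CPM at 1 day, 11.48, 4.952 and 6.341 at 3 days, and 23.46, 25.5 and 7.901 at 7 days. Its slope of 0.53 ± 0.23 (0.76 ± 0.23 among known microRNAs alone) rested on 2 of the 3 libraries at 7 days. miR-1285 was as uneven, at 103.0, 107.0 and 76.91, then 193.7, 28.63 and 35.77, then 109.1, 693.2 and 286.5 normalised CPM at 1, 3 and 7 days, and its slope of 0.65 became 0.34 without replicate 2 at 7 days. miR-935, miR-124a (a microRNA of neurons) and miR-1307 had slopes of 0.13 to 0.30, and of 0.34 to 0.51 among known microRNAs alone. The slope of miR-935 of 0.30 became 0.17 without replicate 3 at 1 day, that of miR-124a of 0.21 became 0.12 without replicate 3 at 7 days, and that of miR-1307 of 0.13 became 0.05 without replicate 2 at 7 days. Scaled among known microRNAs, all libraries at 7 days were above the other 6 for miR-935 and miR-124a. miR-124a held 13.86, 13.16 and 9.707 normalised CPM at 1 day, 8.764, 19.13 and 18.86 at 3 days, and 16.74, 15.68 and 23.3 at 7 days, all above feeding, at 8.891, 5.384 and 4.907, except for replicate 1 at 3 days. miR-195, of the miR-15/16 family that represses cell cycle genes, had a slope of 0.21 ± 0.20, and of 0.49 ± 0.11 among known microRNAs alone without replicate 1 at 7 days (adjusted p = 0.108). Without replicate 2 at 7 days its slope was 0.08, and 0.22 among known microRNAs alone. miR-129b varied more than 10-fold within the group at 3 days, from 8.625 to 86.56 normalised CPM, and its slope of 0.58 ran from 0.36 without replicate 3 at 7 days to 0.96 without replicate 1 at 1 day.

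**Figure D3:**
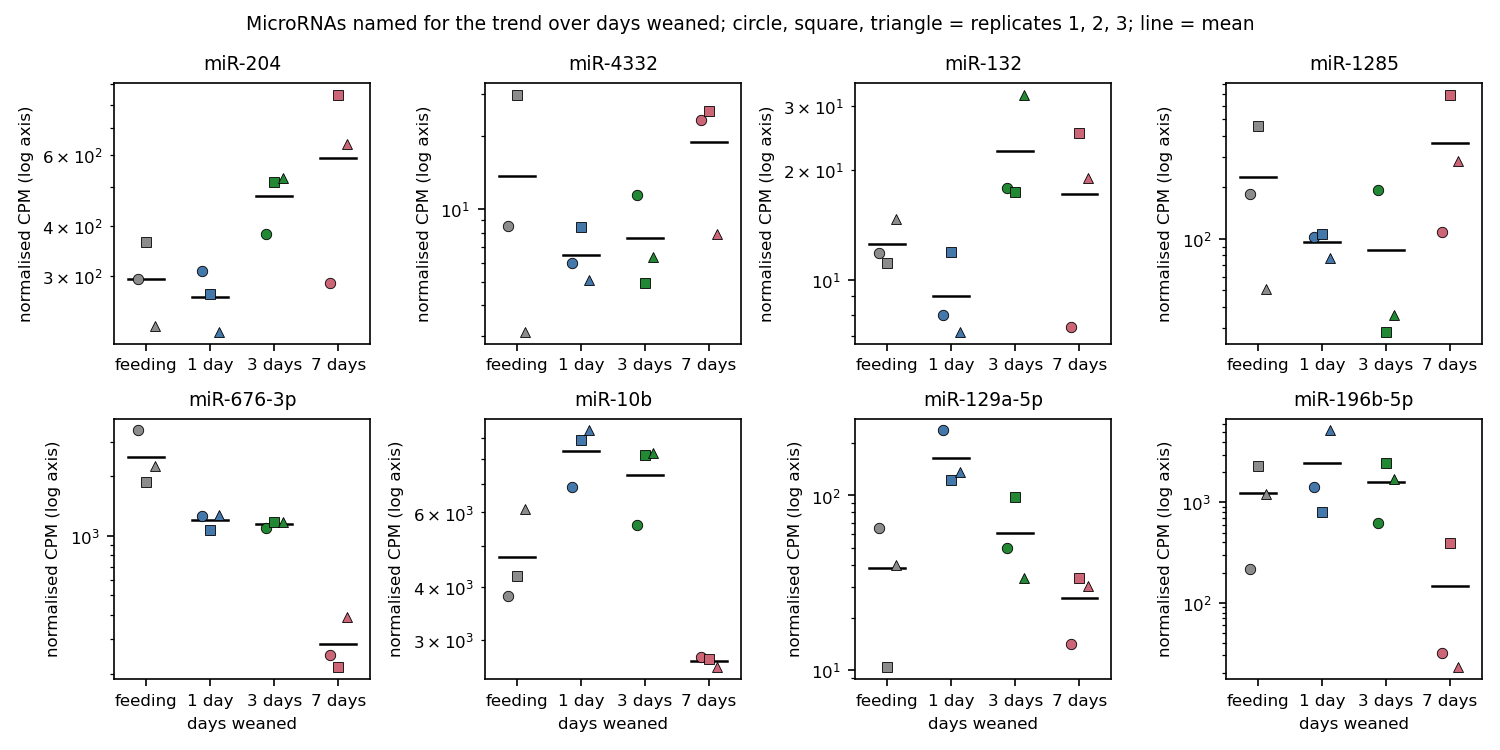
Levels of 8 microRNAs named for the trend, in normalised CPM on log axes, in feeding libraries and at 1, 3 and 7 days after weaning. Points are libraries and lines are means of 3; for miR-676-3p, miR-10b and miR-196b-5p the 3 libraries at 7 days lie below all at 1 and 3 days, while for miR-204 replicate 1 at 7 days, at 288.5, lies among the libraries at 1 day.

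A microRNA that changes at 3 days and returns by 7 days leaves little slope, and is seen in the departure of the day 3 mean from a straight line in log2 days between 1 and 7 days. No known microRNA passed this test in the 2 full fits. edgeR called 0 of 2235 named small RNAs (0%; limma 0, 0%). At an unadjusted p under 0.05 there were 107 (4.79%), 19 of them known microRNAs. Of these, 13 had day 3 above the line, against 2.77% of all tested in that direction, and 6 below it, against 2.01%. Among known microRNAs alone, edgeR called 0 (0%), as did limma (0%). At an unadjusted p under 0.05 from edgeR there were 35 (12%), of which 19 had day 3 above the line (6.51%) and 16 below it (5.48%). Without replicate 1 at 7 days, the fit of known microRNAs alone called 1 of 294 (0.34%; 15.3% unadjusted), miR-194a, and the fit of all named small RNAs called 0 of 2632 (0%; 6.12% unadjusted). DESeq2 called 16 small RNAs (0.716%), among them miR-194a and miR-676-3p, and 7 among known microRNAs alone (2.4%). These 7 were miR-194a, miR-676-3p, miR-218b and miR-490-5p with day 3 above the line, and miR-20b, miR-671-5p and miR-335 with day 3 below it. For miR-676-3p the level at 3 days was close to that at 1 day, and lower at 7 days.

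miR-194a, of the absorptive epithelium, had the largest departure of the named microRNAs. It held 15480, 7710 and 15740 normalised CPM at 1 day, 50040, 84130 and 57530 at 3 days, and 476.6, 6056 and 9630 at 7 days. All libraries at 3 days were above the other 6, and feeding libraries, at 76500, 46810 and 26830, were above all at 1 and 7 days. The mean at 3 days was 4.92 times that at 1 day. The departure was 3.02 ± 0.68 on the log2 scale (edgeR adjusted p = 0.61), 2.98 ± 0.58 among known microRNAs alone (adjusted p = 0.125), and 2.63 ± 0.27 in that fit without replicate 1 at 7 days, where it passed (adjusted p = 0.00162). When 1 library at a time was left out, the departure ran from 2.70 to 3.29.

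miR-192, whose gene is the neighbour of miR-194a (both in chr2:7285466-7285746), showed the same order of days with a smaller range. It held 58120, 80980 and 111900 normalised CPM at 1 day, 113300, 129000 and 110500 at 3 days, and 54130, 53310 and 45860 at 7 days. Libraries at 7 days were below all others, and replicate 3 at 1 day reached the range of 3 days. Scaled among known microRNAs, days 7 and 1 overlapped, at 58910 to 108300 and 61030 to 108200 CPM. There the libraries at 3 days were above both. The slope was -0.23 ± 0.09, and -0.0 among known microRNAs alone. The departure was 0.89 ± 0.22 (edgeR adjusted p = 0.61) and 0.76 ± 0.26 (adjusted p = 0.356). In feeding libraries the level was 165000, 126000 and 117300.

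The second pair of the family lies within IARS2, an isoleucyl-tRNA synthetase gene (chr10:9704606-9704987). miR-194b-5p held 82000, 53820 and 116400 normalised CPM at 1 day, 112500, 134000 and 117600 at 3 days, and 1711, 23430 and 48590 at 7 days. Its departure was 1.53 ± 0.71, and 1.17 ± 0.28 among known microRNAs alone without replicate 1 at 7 days (edgeR adjusted p = 0.137). miR-194a and miR-194b-5p are near-identical, and reads may be split between them by rules not described here. Their sum was 97470, 61530 and 132100 at 1 day, 162500, 218200 and 175100 at 3 days, and 2188, 29490 and 58220 at 7 days. In this scaling the 3 groups of libraries did not overlap, whichever name received a read. Scaled among known microRNAs, the sums at 1 and 7 days overlapped. There miR-194a and miR-194b-5p were at 12370 and 62420 CPM in replicate 3 at 7 days, above 8303 and 57960 in replicate 2 at 1 day. miR-215 did not share the high day 3: it held 1876, 1927 and 3005 at 1 day, 2012, 1706 and 1779 at 3 days, and 6.17, 725.7 and 1173 at 7 days, against 5432, 3174 and 3895 in feeding libraries. miR-429, a microRNA of epithelia in general, had a departure of 0.83 ± 0.38 with 3353, 5666 and 7380, then 6262, 8640 and 6244, then 1406, 4214 and 3656 normalised CPM at 1, 3 and 7 days.

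Others named for a high day 3 were miR-26a and miR-218b, beside miR-676-3p and miR-10b, whose departures of 1.10 ± 0.27 and 0.74 ± 0.23 reflect levels at 3 days close to those at 1 day. miR-26a, which lies in the phosphatase gene CTDSP2 (chr5:23112744-23112827), held 56060, 55010 and 64260 normalised CPM at 1 day, 66500, 90550 and 64660 at 3 days, and 43970, 38780 and 41290 at 7 days. The 3 groups did not overlap, but scaled among known microRNAs they did. The departure of 0.62 ± 0.19 became 0.41 without replicate 2 at 3 days. miR-218b, which lies in SLIT3, an axon guidance gene (chr16:55115926-55116009), held 6.355, 12.85 and 7.252 at 1 day, 38.4, 144.1 and 33.82 at 3 days, and 35.37, 13.84 and 16.96 at 7 days. All libraries at 1 day were below the others and below feeding, at 57.65, 17.9 and 109.6. Its slope was 0.54 ± 0.25, and 0.78 ± 0.24 among known microRNAs alone, where it became 0.48 without replicate 1 at 7 days. The departure of 2.28 ± 0.58 became 1.25 without replicate 2 at 3 days.

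Among microRNAs of leukocytes, miR-150 and miR-142-5p had their lowest mean at 3 days. miR-150, a microRNA of mature lymphocytes, held 5844, 7588 and 8039 normalised CPM at 1 day, 5504, 1517 and 2649 at 3 days, and 5863, 5015 and 5681 at 7 days. Replicate 1 at 3 days lay with the libraries at 7 days, and the other two were the lowest of the 9. The departure of -0.94 ± 0.39 became -1.56 without that replicate and -0.65 without replicate 2. miR-142-5p, found throughout blood cells, held 132.1, 107.4 and 137.2 at 1 day, 52.38, 43.15 and 80.94 at 3 days, and 86.14, 71.93 and 110.4 at 7 days. Its departure was -0.82 ± 0.36, and scaled among known microRNAs the libraries at 3 days were below all others. The replicate 1 library at 3 days, with 43.18% of counts in exons, introns and intergenic sequence, differed from the other two at 3 days in that share too; the part of this share in the levels was not tested.

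miR-20b, miR-671-5p and miR-374a-5p had all 3 libraries at 3 days below the other 6. miR-20b, of the miR-17 family that promotes proliferation, held 455.3, 279.9 and 453.9 normalised CPM at 1 day, 134.2, 179.6 and 225.1 at 3 days, and 256.0, 308.3 and 383.1 at 7 days. The departure was -0.96 ± 0.34 (edgeR adjusted p = 0.793) and -1.08 ± 0.24 (adjusted p = 0.125). Its cluster neighbours on chromosome X (chrX:110113552-110114468) varied more: miR-363, miR-18b and miR-106a had departures of 0.43 ± 0.75, 0.22 ± 0.49 and -0.23 ± 1.24, and the difference between members was not tested. miR-671-5p held 30.95, 46.53 and 38.37 at 1 day, 17.6, 10.52 and 20.47 at 3 days, and 38.49, 29.96 and 64.5 at 7 days, with departures of -1.37 ± 0.45 and -1.44 ± 0.38. miR-374a-5p held 46.02, 53.98 and 76.68, then 30.54, 27.34 and 22.86, then 36.35, 39.67 and 133.9 at 1, 3 and 7 days; without the last of these libraries its departure went to -0.85 in place of -1.27. miR-365-3p, at 37.91, 22.16 and 26.61 at 1 day, 9.669, 5.02 and 9.123 at 3 days, and 8.92, 8.258 and 19.28 at 7 days, was lower from 3 days on in this scaling, and libraries at 3 and 7 days overlapped. Scaled among known microRNAs, replicate 3 at 7 days, at 24.77 CPM, lay within the range of 1 day, 23.86 to 39.81.

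**Figure D4:**
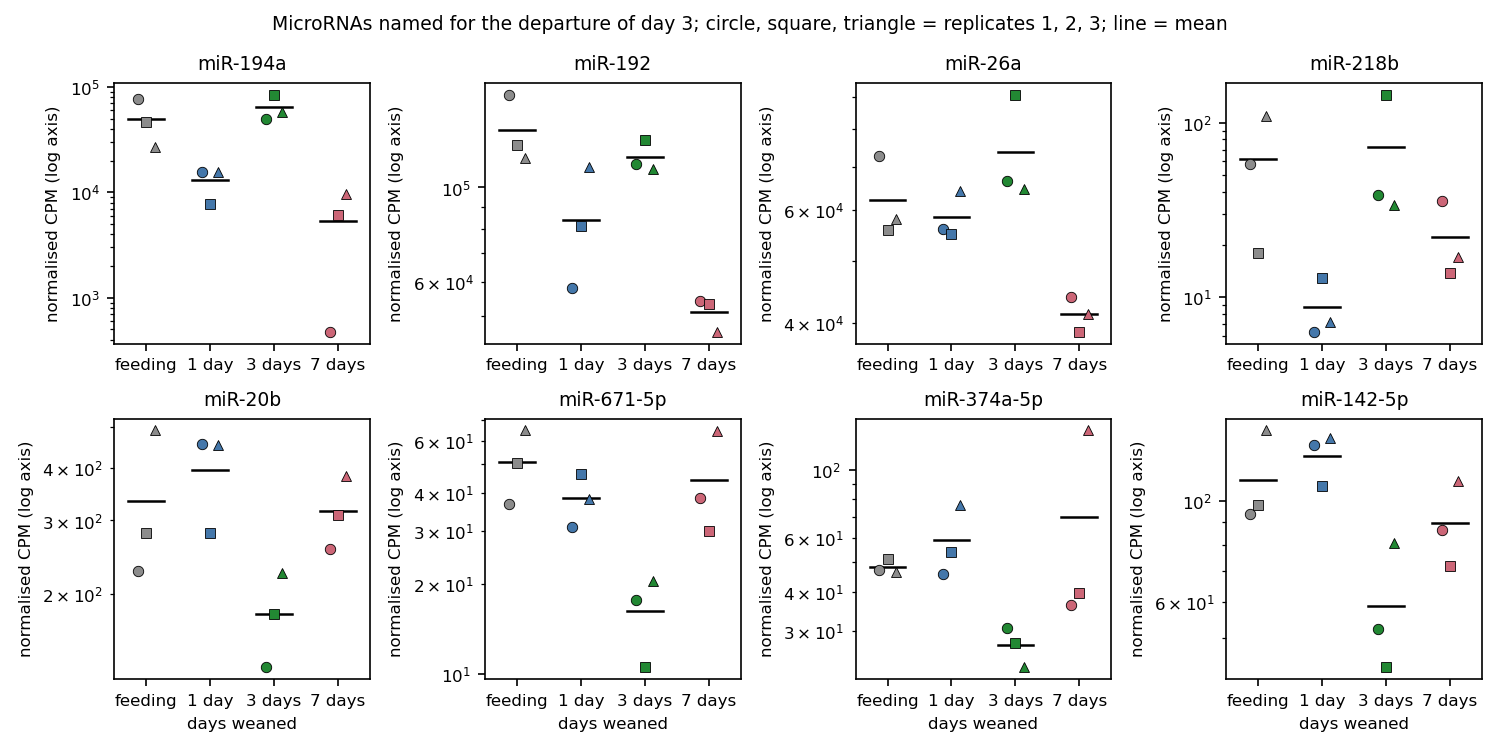
Levels of 8 microRNAs named for the departure of day 3, in normalised CPM on log axes, in feeding libraries and at 1, 3 and 7 days after weaning; points are libraries and lines are means of 3. The 3 libraries at 3 days lie above all at 1 and 7 days for miR-194a and miR-26a, and below them for miR-20b, miR-671-5p and miR-374a-5p.

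Counting libraries that do not overlap gives a view that needs no model. In 231 of the 292 known microRNAs no day stood clear of the others, against 89.5% of all named small RNAs tested. An even order over days was rare. No known microRNA had all libraries at 3 days above those at 1 day and all at 7 days above those at 3 days (against 0.134% of all named small RNAs tested). The opposite order was seen in 2, miR-191 and miR-362 (against 0.134%). Both lost it when scaled among known microRNAs, where 0 had an order in either direction (0% and 0%). Each small RNA was counted under 1 pattern only, the first that held of an even order, day 3 clear, day 7 clear and day 1 clear. Day 7 stood below both others in 27 of the 292, against 2.19% of all 2235 named small RNAs tested, and above in 0, against 2.68%. The 27 leave out microRNAs already counted under another pattern, such as miR-191, miR-362 and miR-26a, which also had day 7 below both. Day 1 stood above in 21, against 2.55%, and below in 2, against 0.761%. Scaled among known microRNAs alone, these counts were 7 below (2.4%) and 8 above (2.74%) for day 7, and 4 above (1.37%) and 11 below (3.77%) for day 1, with 243 in which no day stood clear (83.2%). The excess of day 7 below and day 1 above is thus present in 1 scaling and not in the other.

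Day 3 stood above both in 5 known microRNAs, against 1.12% of all named small RNAs tested: miR-194a, miR-26a, miR-27b-3p, miR-1468 and miR-664-5p. It stood below both in 4, against 0.895%: miR-20b, miR-374a-5p, miR-671-5p and miR-335. Among known microRNAs alone the counts were 10 above (3.42%) and 9 below (3.08%), and miR-192, miR-194b-5p, miR-10a-5p, miR-31 and miR-23b were among the 10. Among the patterns present in both scalings was day 7 below both others for miR-676-3p, miR-10b, miR-196a, miR-196b-5p, miR-215, miR-22-5p and miR-769-5p. Day 1 was above both in both scalings for miR-129a-5p, miR-155-5p, miR-369 and miR-376a-3p. miR-155-5p, which activated lymphocytes and macrophages make, held 1649, 1695 and 1789 normalised CPM at 1 day, 506.4, 993.4 and 854.8 at 3 days, and 186.6, 689.1 and 1184 at 7 days, against 688.0, 970.6 and 1647 in feeding libraries.

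Grouped by cell type, no list had a member called in the 2 full fits. All 5 tested members of the absorptive epithelium list had a positive departure, with a median of 0.89 (0.76 among known microRNAs alone), against 0.07 (-0.06) for all 292. Their median stayed positive, at 0.64 to 1.13, with any 1 library left out of the second fit. All 5 slopes were negative, with a median of -0.42 (-0.21). The summed level of the list was 144400 to 247100 normalised CPM at 1 day, 277800 to 348900 at 3 days and 56330 to 105300 at 7 days, and these ranges did not overlap. Members share clusters and near-identical sequence, so they are not independent. All 6 leukocyte members had a negative departure, with a median of -0.63 (-0.79), of -0.56 to -0.98 when 1 library was left out. Over all 292 known microRNAs, 128 (158) departures were negative and 164 (134) positive. The 6 include both arms of miR-142 and of miR-155, so they are not independent either. A negative departure need not be a lowest day 3. For miR-155-5p, scaled among known microRNAs, the lowest library was replicate 1 at 7 days, at 373.4 CPM. The summed level of the leukocyte list was 9248 to 11830 at 1 day, 3579 to 6999 at 3 days and 6479 to 8247 at 7 days, with an overlap between 3 and 7 days. The most abundant was miR-150, described above.

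The smooth muscle list rested largely on 1 library. All 7 tested members had a negative departure, with a median of -0.72 (-0.69), and 7 of 7 had a negative slope (6 of 7 among known microRNAs alone). Without replicate 1 at 1 day the median departure among known microRNAs alone was -0.17, with 2 of 7 positive, and the median slope was 0.12, with 6 of 7 positive. In that library miR-133b held 346.7 normalised CPM, against 0.8553 to 109.0 in the other 8, miR-1 held 213.3, against 3.91 to 37.94, and miR-145-5p 3354, against 63.05 to 1678. With miR-143-3p, these 4 microRNAs of muscle were all highest in that library, and the part of this in its other levels was not tested.

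The other cell type lists are given by their medians. The 5 mesenchyme members had a median slope of -0.16 (0.04) and a median departure of 0.21 (0.07), with miR-199a-3p the most abundant at 5699, 7486 and 1180, then 5277, 7954 and 7812, then 2086, 881.8 and 4700 normalised CPM at 1, 3 and 7 days. Reads may be split between this name and miR-199b-3p, which held 1199, 1698 and 6758, then 1505, 2073 and 1739, then 2.138, 6325 and 1045, and was highest in the 2 libraries where miR-199a-3p was lowest. Both endothelial members, the arms of miR-126, had a median slope of -0.01 (0.20) and a median departure of -0.20 (-0.31), and miR-126-3p averaged 14090 ± 3560, 15640 ± 3380 and 13090 ± 831. Red blood cell microRNAs had a median slope of -0.09 (0.09), with miR-451 at 2503 to 4380 in the 9 libraries. miR-144, cut from the same transcript, was scarce except for 10.49 normalised CPM in replicate 3 at 7 days. The 5 neuronal members had a median slope of -0.25 (-0.04) and a median departure of -0.42 (-0.64; -0.11 without replicate 1 at 1 day and -0.30 without replicate 1 at 7 days), and were led by miR-128, at 1067 ± 386, 1100 ± 252 and 641.1 ± 98.6. miR-122, of liver, was the single tested member of its list, at 2.932 to 26.28 normalised CPM, and miR-216 and miR-217, of pancreas, had at most 52 and 3 counts in a library.

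By family or process, the HOX list combined negative slopes with positive departures, 6 of 6 each, and a median departure of 0.73 (0.59). Over all 292 known microRNAs, 240 (136) slopes were negative and 164 (134) departures positive. Among known microRNAs alone, 2 of the 6 slopes were positive without replicate 3 at 1 day (median -0.29). The same number was positive without replicate 3 at 7 days (median -0.24). The 9 let-7 members had a median slope of -0.22 (-0.02), and let-7a, the most abundant, averaged 42940 ± 3490, 36660 ± 6970 and 30730 ± 3640 normalised CPM at 1, 3 and 7 days. The 11 members of the miR-17-92 clusters, known from proliferating cells, had a median slope of -0.19 (0.00), led by miR-92a at 36390 ± 7070, 42690 ± 13500 and 30870 ± 7180. The 13 members of miR-29 and miR-30 had -0.19 (0.02), led by miR-30d, and the 5 of miR-15/16 had -0.21 (0.03), led by miR-16. The 6 inflammation members had -0.28 (-0.09). Their most abundant, miR-21, which is induced in inflamed mucosa, held 37970, 77260 and 74370 normalised CPM at 1 day, 42820, 63540 and 81050 at 3 days, and 8447, 79560 and 27510 at 7 days, where it spread most. Of 12 members of the imprinted DLK1-DIO3 cluster, 11 had a negative slope in both scalings, with a median of -0.42 (-0.24), led by miR-127. The count for all known microRNAs was 240 (136) of 292. These members share 1 cluster, so they are not independent, and some were scarce. miR-493-3p, for example, was at 0.0 to 0.994 CPM when scaled among known microRNAs. miR-210, the hypoxia microRNA, had a slope of -0.18 (0.05), and miR-34a and miR-34c of the p53 list had -0.28 (-0.07) and 0.75 (0.88). miR-34c was scarce, at 0.1222 to 1.618 normalised CPM in 8 libraries and 9.106 in replicate 3 at 7 days, and without that library the median slope of the list among known microRNAs alone was 0.12, against 0.41 with it.

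**Figure D5:**
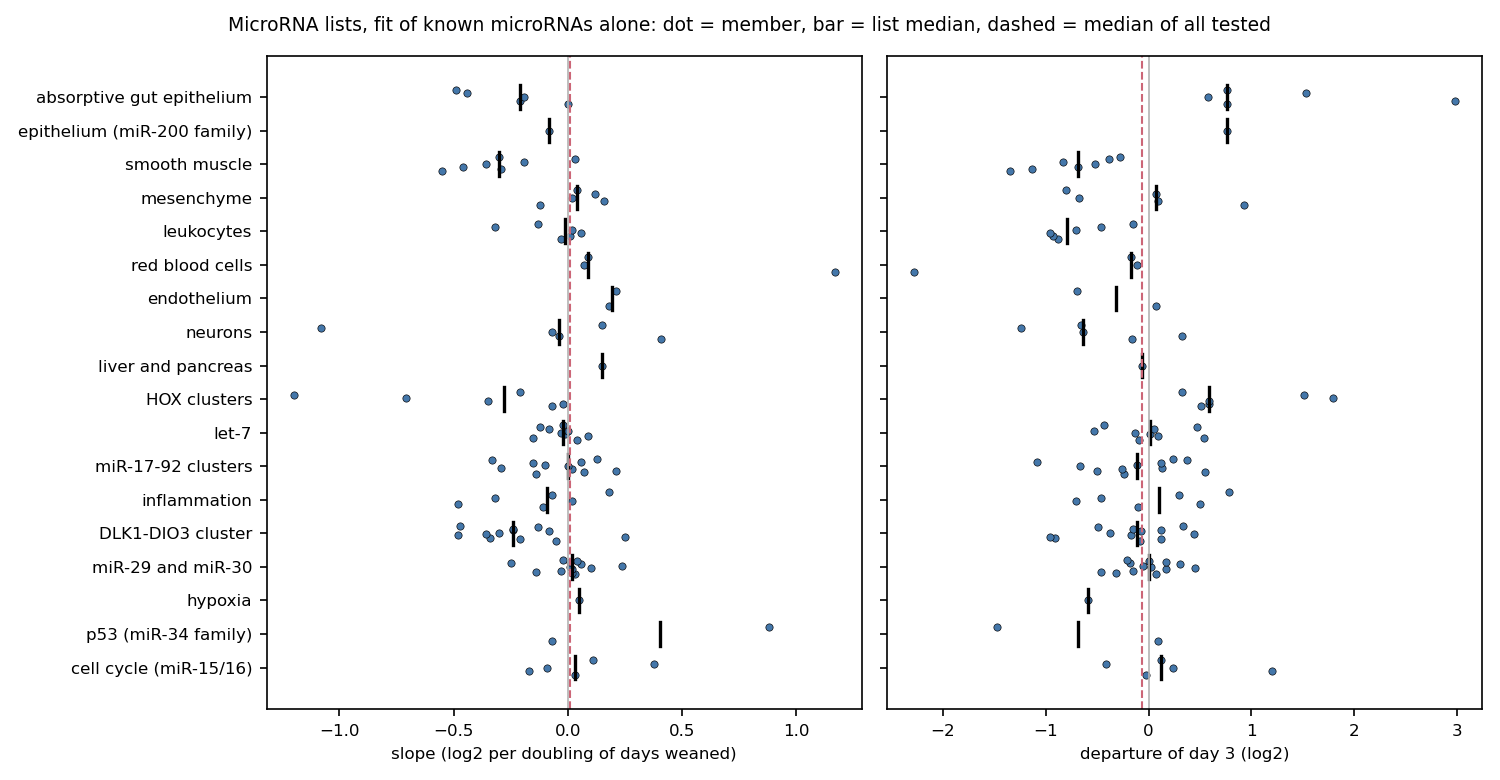
Slope per doubling of days weaned (left) and departure of day 3 (right), in log2 units from the fit of known microRNAs alone, for the tested members of 18 lists. Dots are members, black bars are list medians and the dashed line is the median of all 292; the absorptive epithelium and HOX lists lie to the right in departure, with medians of 0.76 and 0.59, and leukocytes to the left, with -0.79.

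Members of 1 genomic cluster can be set side by side, since they are cut from shared transcripts. The 3 members of the miR-183, miR-96 and miR-182 cluster (chr18:18982269-18986913), known from sensory epithelia, had departures of 0.73 to 0.81 (0.61 to 0.66 among known microRNAs alone). miR-183 held 642.2, 1040 and 1266 normalised CPM at 1 day, 1215, 1533 and 1564 at 3 days, and 583.9, 1141 and 648.4 at 7 days, with an overlap between 1 and 3 days. Both miR-132 and miR-212 had positive slopes, as given above. By contrast, miR-195 and miR-497 (chr12:52422039-52422408) had slopes of 0.21 and -0.10, and miR-144 and miR-451 differed by more than 1 log2 unit in slope, with 1.04 and -0.15. As given above, miR-144 was scarce except in replicate 3 at 7 days.

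The ratio of the 2 arms of a precursor is free of scaling between libraries. Of 20 pairs with both arms counted, none passed (lowest p = 0.0881 for miR-676, adjusted p = 0.759, exact permutation test, two-sided). The log2 ratio of the 5p to the 3p arm of miR-676 was -9.1, -9.49 and -10.05 at 1 day, -10.03, -10.63 and -8.78 at 3 days, and -7.83, -8.47 and -7.96 at 7 days. All libraries at 7 days were above the others. Replicate 1 at 7 days stood apart here as well. Its ratio lay more than 2 log2 units outside all 8 others in 5 pairs, those of miR-145, miR-155, miR-194b, miR-30a and miR-199b, and no other library did so in any pair. For miR-194b the ratio was 8.69 in it, against 13.15 to 14.12 elsewhere, and for miR-199b 5.2, against -6.1 to -3.73. The miR-199b ratio depends on how reads were split with miR-199a.

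Among the remaining members of the 10 most abundant known microRNAs, miR-191 held 77450, 77430 and 84360 normalised CPM at 1 day, 63880, 70650 and 63490 at 3 days, and 62970, 52290 and 53780 at 7 days. The slope was -0.18 ± 0.07 (edgeR adjusted p = 0.478), near that of the class, and 0.04 among known microRNAs alone. miR-181a held 28100, 28080 and 23320 at 1 day, 21530, 26730 and 30700 at 3 days, and 2960, 20170 and 20600 at 7 days, with replicate 1 at 7 days far below the rest. The 45 known microRNAs not tested had at most 52 counts in any of the 9 libraries, and 1 of them was listed in none.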

How the data were processed

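Small RNA was sequenced from pig small intestine. The authors deposited, per the file headers, a count and a TPM value for each small RNA name in each library. The deposited TPM equals the CPM of the library's list, within 0.005, with no length term. The build is Sscrofa11.1, per the submitters' processing notes; the aligner and counting tool were not given in the sources used here. A name missing from a library was entered as 0, and 8 repeated microRNA names were summed. The 3 totals for exons, introns and intergenic sequence were left out of the tests; they took 20.97% to 62.17% of a library. PCR copies are not told apart.

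edgeR 4.0.16 (R 4.3.3) was run on the counts of the 9 libraries: filterByExpr (minimum count 10, minimum total 15), TMM factors, 3 group means and the quasi-likelihood test, two-sided, with Benjamini-Hochberg adjustment over all features of the fit and a threshold of 0.05. The slope is the least squares slope of the group means on log2 of 1, 3 and 7 days. The departure is the 3 day mean minus the straight line between 1 and 7 days. Both were run on data simulated with known answers. The simulated spread between libraries was smaller than in these data, so the run does not show how often a real change would be found here. The second fit used known microRNAs alone. DESeq2 1.42.0 and limma 3.58.1 (log2 of CPM plus 0.5) were alternatives, as were other scalings, time scales and filters, and leaving out each library. Named microRNAs had a mean of at least 10 normalised CPM and the smallest p, up to 10 per direction for the trend and 6 for the departure; the 10 most abundant and the most abundant of each of 18 lists were added, with arms and neighbours of these. The microRNAs and lists were chosen with earlier results of these data known. Coordinates are those of the precursor in RefSeq, where 243 tested microRNAs had 1 match by name; the strand is not used, so "in a gene" means within its span.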

Additional observations from a re-analysis of the deposited data

How the results depend on the processing

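The count of known microRNAs called for the trend in the fit of all named small RNAs was 0, and was 8 with no filter on low counts, 4 with DESeq2 and 3 among known microRNAs alone without replicate 1 at 7 days. For the departure the count was 0, and was 5, 2 and 1 under the same settings. Among known microRNAs alone, DESeq2 called 7 for the trend and 7 for the departure, and leaving out 1 library gave 0 to 3 and 0 to 1. The count of read classes with a trend in share ranged from 0 to 1 when 1 library was left out. The slope of miR-143-3p became 0.12 among known microRNAs alone without replicate 1 at 1 day, the single slope of a named microRNA to change sign. Over single libraries left out it ranged from -0.73 to -0.11 in the fit of all named small RNAs and from -0.50 to 0.12 among known microRNAs alone. The share slopes of predicted microRNAs ranged from -0.00387 to 0.412 points and those of Rfam families from -0.449 to 0.302. The cause of these differences was not tested. limma among known microRNAs alone, the known microRNA scaling of the overlap counts and the lists with a library left out were added after seeing the data. Of the other slopes of named microRNAs under alternatives, 639 kept their direction and their side of the threshold and 20 passed it. Of their departures, 375 kept both and 9 passed. No paired analysis was possible because the labels give no replicate numbers shared between groups. The biological coefficient of variation was 120% in the fit of all named small RNAs and 47.56% among known microRNAs alone. With that spread and 3 libraries per day, a difference that did not pass is not shown to be absent.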
